A study of Mus musculus with 16 samples.

Results

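Spp1, the gene of osteopontin, and Cd44, the gene of the adhesion receptor CD44, were followed across 16 single-colour arrays of sorted mouse liver cells. Their probes were taken by the gene name printed in the array annotation, which gave 1 probe for Spp1 and 3 for Cd44 among 41174 probes other than controls, or 2 genes of 28034 names. All 4 passed the filter on dim probes, as did 35782 of all probes. The 2 genes were selected on a view of earlier results of these arrays, which included the Spp1 difference between the sorts in untreated liver. Which values decided the choice is not recorded, so levels and differences of the 2 genes are given as descriptions, with standard errors and without p-values.

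The arrays held 14 biological samples of c129/S3 mice, all on a Purina base diet. Non-parenchymal cell fractions were sorted by flow cytometry for the surface antigen MIC1-1C3 (M) and for CD133, which Prom1 encodes. Cells positive for both (M+133+) and negative for both (M-133-) came from livers of mice given 0.1% DDC in the diet for 2 weeks (n = 4 for each sort) or from untreated livers (n = 4 for M+133+ and n = 2 for M-133-). The M-133- sort is defined by the lack of both antigens and so can hold several cell types. DDC, 3,5-diethoxycarbonyl-1,4-dihydrocollidine, is a porphyrinogenic compound that injures bile ducts and is fed to mice to induce a ductular reaction. Sample 1 of the M+133+ untreated group and sample 2 of the M-133- untreated group were each hybridised on 2 arrays, which were averaged. Genotype beyond the strain, sex and age are not given in the labels used here, nor is it stated whether each sample came from 1 mouse or a pool. The p-values therefore measure the spread between these samples.

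Osteopontin is a secreted phosphoprotein with an RGD motif that is bound by integrins and, in other stretches, by CD44. In liver it is known as a product of bile duct epithelium, and in injury also of macrophages and of activated stellate cells. CD44 is the main cell surface receptor for hyaluronan, links the membrane to the actin skeleton through ezrin family proteins, and is spliced into a standard form and variant forms that carry extra exons.

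The Spp1 probe, A_51_P358765, is printed at 10 spots on each array and lies at chr5:104869788-104869847 of build mm9, on the plus strand. The annotation places it from base 1128 of the Spp1 transcript. The 3 Cd44 probes lie on the minus strand of chromosome 2. A_52_P229536, with 1 spot, is at chr2:102652907-102652966 from transcript base 3985, and A_52_P523459, with 10 spots, is at chr2:102651667-102651726 from base 5225. Both are listed for 3 Cd44 transcripts. A_51_P407053, with 1 spot, is at chr2:102674420-102674479 from base 1851 and is listed for 2 of these 3 transcripts. Its sequence is shown because its values differed from those of the other Cd44 probes in M-133- cells.
Cd44 A_51_P407053: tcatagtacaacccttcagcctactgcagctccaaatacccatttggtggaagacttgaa

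All levels are log2 of the processed signal relative to the 75th percentile of the array, so a level of 0 equals that percentile. The percentile lay between 603 and 2732 intensity units, and 60.3% to 77.3% of spots per array were well above background. It was lowest on the array of M-133- untreated sample 1 (603) and on the second array of M-133- untreated sample 2 (706), against 2081 on the first array of that sample. Prom1, which encodes the sorted antigen, followed the labels, with levels of 0.81 to 2.23 in M+133+ DDC and -8.63 to -3.52 in M-133- DDC samples, and of 1.13 to 1.82 in M+133+ untreated and -8.35 to -7.74 in M-133- untreated samples. Across 24127 genes tested, limma called 12.3% in the sort comparison after DDC, 8.46% in untreated liver, 0.232% when DDC was set against untreated in M+133+ cells, 0.949% in M-133- cells, and 0.249% in the interaction of sort and DDC, at an adjusted p under 0.05 in either direction. The median difference over all genes was 0.30, -0.09, 0.06, -0.38 and 0.40 in these comparisons, in the same order. Subtracting the array median instead moved the median of all genes to -0.40 in the sort comparison after DDC and to 0.28 for DDC in M-133- cells. The higher genes then made up 26.4% of calls instead of 49.6% in the sort comparison after DDC, 85.3% instead of 61.1% for DDC in M-133- cells, and 10.0% instead of 25.0% for the interaction. With quantile normalization they made up 74.3% of the calls for DDC in M-133- cells.

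Spp1 was high in every M+133+ sample and in every M-133- sample from DDC livers, and low in both M-133- samples from untreated livers. Its levels were 6.39, 5.62, 5.82 and 5.82 in M+133+ DDC samples, and 5.56, 3.24, 3.06 and 5.09 in M-133- DDC samples. They were 5.69, 5.65, 5.91 and 6.40 in M+133+ untreated samples, and -6.29 and -2.79 in M-133- untreated samples. The group means were 5.91 ± 0.33 in M+133+ DDC, 4.24 ± 1.27 in M-133- DDC and 5.91 ± 0.35 in M+133+ untreated samples (SD, n = 4 each), and -4.54 ± 2.47 in M-133- untreated samples (SD, n = 2). In this order of levels the M+133+ groups overlapped, and each of the lower groups lay wholly below its neighbour.

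**Figure D1:**
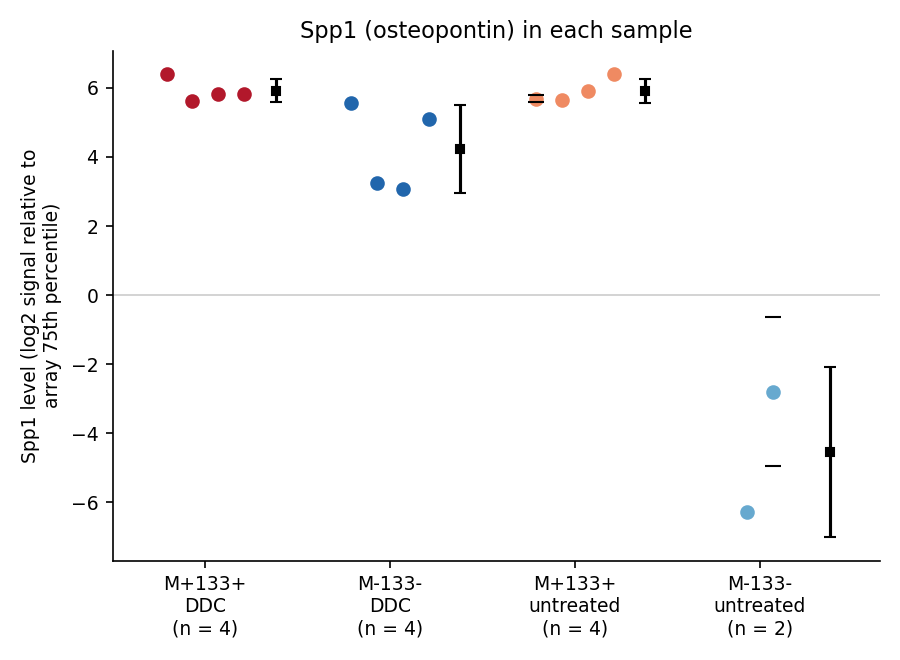
Spp1 levels (y axis, log2 signal relative to the array 75th percentile) by group, with 1 circle per sample, black ticks for the repeat arrays of a sample, and squares with bars for the group mean and SD. The M-133- untreated samples sit at -6.29 and -2.79, below all 4 M-133- DDC samples, which reach from 3.06 to 5.56.

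In untreated liver Spp1 was higher in M+133+ than in M-133- cells by 10.46 on the log2 scale (SE 0.81). The values of the 2 groups did not overlap, which held for 15.3% of all genes in this direction. The SE takes 1 spread for all 4 groups, although the SD of Spp1 ran from 0.33 in M+133+ DDC to 2.47 in M-133- untreated samples. It can thus be too small for differences that involve M-133- untreated samples and too large within M+133+ cells. The low end of the sort difference was poorly measured. On the array of M-133- untreated sample 1, 0 of the 10 Spp1 spots were well above background, and the dimmest probe that was lay at -5.53, so the level of -6.29 there lies in the background. With that sample at -5.53 instead, the sort difference was 10.08. The 2 arrays of M-133- untreated sample 2 differed by 4.32, with a level of -0.63 on the first (10 of 10 spots well above background) and -4.96 on the second (7 of 10). This gap of 20.0-fold between repeat arrays of 1 sample was exceeded by 5.98% of genes, and the median gap was 1.38. The sort difference was 8.71 without M-133- untreated sample 1 and 12.20 without M-133- untreated sample 2. Within slides it was 6.21 on slide 2 and 11.36 on slide 4, each from 1 array per sort. The authors' deposited table gives a ratio of 9.97 on the log2 scale when turned to M+133+ over M-133-, a value of low precision, since the table holds the reciprocal of a ratio kept to few decimals.

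After DDC the sort difference of Spp1 was 1.67 (SE 0.66), or 3.19-fold, and the groups again did not overlap, as for 7.44% of all genes in this direction. It was 0.97 after subtracting the array median and 2.69 with slide as a fixed term. No slide held both sorts of DDC cells, so slide and sort cannot be told apart in this comparison beyond that fit. Each DDC sample shared the prefix of its title with a sample of the other sort. What the prefix stands for is not given. Within prefixes 5, 8, 7 and 6 the Spp1 difference was 3.33, 0.055, 0.74 and 2.57. The authors' deposited table has 2.23 for the same ratio on the log2 scale at the first Spp1 spot, and 1.82 to 1.98 at the other spots.

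In M+133+ cells the Spp1 difference between DDC and untreated samples was -0.0016 (SE 0.66), far smaller than its error, and the groups overlapped. On slide 3 the difference was 0.22, and on slide 4 it was -0.58. In M-133- cells the DDC samples were higher than the untreated ones by 8.78 (SE 0.81), and by 8.40 with M-133- untreated sample 1 at the dimmest level well above background on its array. These groups did not overlap, as for 6.87% of all genes in this direction. Within slides the difference was 11.85 on slide 1 and 3.79 on slide 2, where the M-133- untreated array was the brighter repeat. It was 7.03 without M-133- untreated sample 1 and 10.53 without M-133- untreated sample 2. In the authors' deposited table the ratio of DDC over untreated at the first Spp1 spot is -0.28 in M+133+ and 8.21 in M-133- cells on the log2 scale. At the other spots it is -0.43 to -0.26 in M+133+ and 7.88 to 8.85 in M-133- cells. The interaction, the sort difference after DDC minus that in untreated liver, was -8.78 (SE 1.04), and -8.40 with that sample at the same level. In bulk samples such as these, more cells that hold Spp1 RNA and more of it per cell cannot be told apart.

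**Figure D2:**
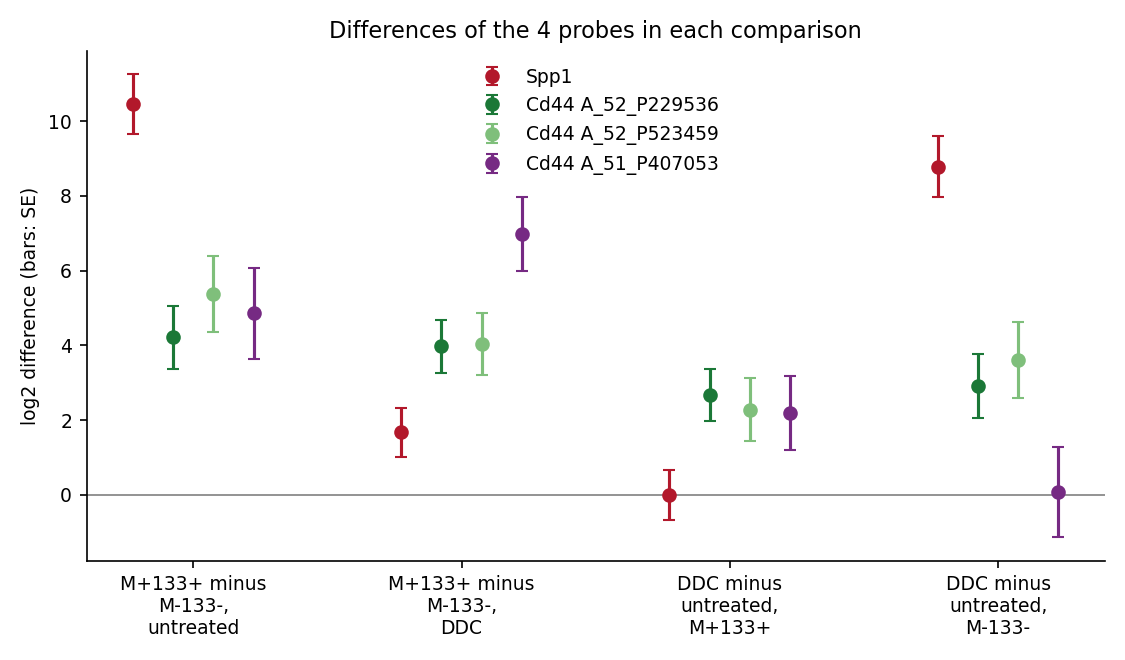
Log2 differences (y axis, with SE) of the Spp1 probe and the 3 Cd44 probes in 4 comparisons (x axis). Spp1 stands at 10.46 and 8.78 in the comparisons that involve M-133- untreated cells and near 0 for DDC in M+133+ cells, while Cd44 A_51_P407053 parts from the other Cd44 probes after DDC in M-133- cells.

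Markers of bile duct moved in part with Spp1 in M-133- cells. The summed level of 7 duct markers (log2 of their summed signal on the same scale) was 4.26, 1.98, 4.31 and 4.48 in M-133- DDC samples, against -0.45 and 0.26 in M-133- untreated samples. Those of M+133+ cells lay at 7.19 to 9.04 after DDC and 6.79 to 7.19 in untreated liver. In M-133- DDC samples this sum came mostly from 2 genes, Tspan8 and Sox9, so it does not stand for all 7 markers. The median difference of the 7 markers for DDC in M-133- cells was 1.57. Of the 7 duct markers, limma called 2 higher and 0 lower after DDC in M-133- cells, beside 0.58% of all genes called higher. Tspan8, a tetraspanin of epithelia, was higher by 7.38 (SE 0.85, adjusted p = 0.00067), and Sox9, a transcription factor of duct cells, by 3.33 (SE 0.64, adjusted p = 0.023). The Tspan8 call passed under all 26 alternatives run. The Sox9 call was lost under 5 of 26, among them leaving out M-133- untreated sample 1 (2.91, adjusted p = 0.189) and averaging the kept probes (1.26, adjusted p = 0.244). Tspan8 levels were 3.68, 0.73, 0.61 and 3.77 in M-133- DDC samples 1 to 4, high and low in the same samples as Spp1. Sox9 and the summed level did not follow Spp1 in this way. Of these samples Sox9 was highest in sample 3, where the summed level was 4.31 and Spp1 was lowest (3.06). The other 5 duct markers did not pass the test. Krt19, the duct keratin used most often as a marker, differed by 0.38 (SE 0.80, adjusted p = 0.903), Krt7 by -0.27 (SE 0.71, adjusted p = 0.92), Epcam by 1.96 (SE 0.71, adjusted p = 0.242) and Prom1, which was not well above background in the untreated group, by a fitted 1.57 (SE 1.08, adjusted p = 0.612). The part of duct cells in the Spp1 difference was not tested.

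Macrophage and stellate cell markers were set beside the same difference, since both cell types can hold Spp1 RNA in injury. Of 10 Kupffer cell and macrophage markers, 0 passed limma's test for DDC in M-133- cells, and 0 had an unadjusted p under 0.05. Over all genes, 0.949% passed this test and 12.8% had such an unadjusted p. Their summed level was 4.66, 3.53, 2.60 and 3.94 in M-133- DDC samples, against 4.26 and 0.14 in M-133- untreated samples. Of 8 markers of macrophages in injury, 2 were higher at an unadjusted p under 0.05, and 1 passed. This was Lgals3, the gene of galectin-3, which was higher by 7.38 (SE 1.22, adjusted p = 0.00952) but did not pass without M-133- untreated sample 1 (6.77, adjusted p = 0.102). Gpnmb and Trem2 of the same list differed by -0.27 and -0.62 and did not pass (adjusted p = 0.957 and 0.836). The median difference of this injury list was 0.45. Its summed level was 5.49, 4.86, 5.25 and 5.44 in M-133- DDC samples, against 4.69 and 4.43 in M-133- untreated samples. In M+133+ samples it was 5.47 to 7.37 after DDC and 5.09 to 5.38 in untreated liver, so a high level was not particular to M-133- cells. Lgals3 itself lay at 2.83 and 3.32 on the repeat arrays of M+133+ untreated sample 1. On those of M-133- untreated sample 2 it lay at -4.24 and -4.09. Of 8 stellate cell and fibroblast markers, 1 passed: Des, the gene of desmin, was higher by 5.48 (SE 0.98, adjusted p = 0.0147), and did not pass without M-133- untreated sample 1 or 2 (5.27 and 5.70, adjusted p = 0.122 and 0.06). The summed level of that list was 6.85 to 8.18 in M-133- DDC samples, against 5.53 and 6.48 in M-133- untreated samples. The part of these cells in the Spp1 difference was not tested.

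**Figure D3:**
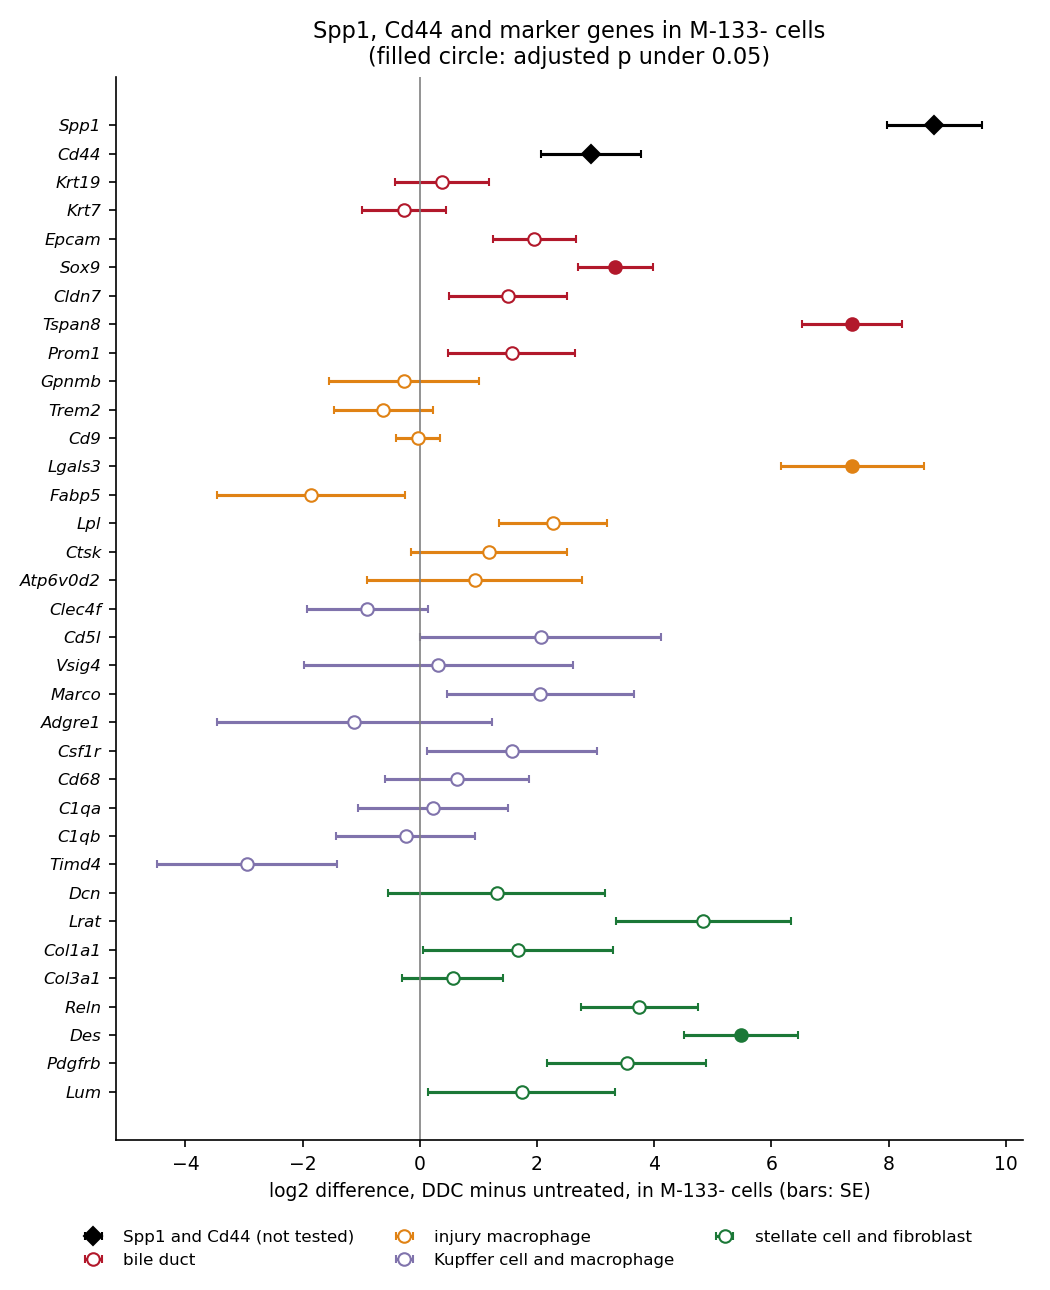
Log2 differences between M-133- DDC and M-133- untreated samples (x axis, with SE) for Spp1, Cd44 (probe A_52_P229536) and the genes of 4 marker lists, filled circles where limma's adjusted p was under 0.05. Spp1 lies at 8.78, Tspan8 and Lgals3 at 7.38 each, and Krt19 at 0.38.

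Cd44 differed between both sorts and both treatments in the probe with the brightest mean, A_52_P229536, which stood for the gene in the fit. Its levels were 4.58, 2.89, 2.58 and 3.79 in M+133+ DDC samples, and -0.18, -0.21, -0.35 and -1.31 in M-133- DDC samples. They were 1.92, 2.20, -0.66 and -0.31 in M+133+ untreated samples, and -3.18 and -3.67 in M-133- untreated samples. M+133+ DDC samples were thus the highest and M-133- untreated samples the lowest, and the ranges of the other 2 groups overlapped.

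For this probe the sort difference was 3.97 (SE 0.70), or 15.7-fold, after DDC and 4.21 (SE 0.85), or 18.5-fold, in untreated liver. The DDC difference was 2.67 (SE 0.70), or 6.37-fold, in M+133+ cells and 2.91 (SE 0.85), or 7.53-fold, in M-133- cells. After DDC the sort difference was 5.21 with slide as a fixed term, 5.00 with the kept probes averaged and 3.27 after subtracting the array median. The groups did not overlap in any of these 4 comparisons. For DDC in M+133+ cells that held for 3.95% of all genes in this direction. The interaction was -0.24 (SE 1.10), smaller than its error. Its sign was not stable, with 0.86 under normexp background correction, 0.42 with slide as a fixed term and 0.18 with the kept probes averaged. On slides 3 and 4 the DDC difference in M+133+ cells was 2.96 and 3.49, and on slides 1 and 2 that in M-133- cells was 3.00 and 2.79. The sort difference in untreated liver was 4.98 on slide 2 and 3.96 on slide 4. With normexp background correction the DDC difference in M-133- cells was 1.77 and the sort difference in untreated liver 3.04. The authors' deposited table has, on the log2 scale, 3.82 and 4.80 for M+133+ over M-133- cells after DDC and in untreated liver, and 2.23 and 3.24 for DDC over untreated in M+133+ and in M-133- cells.

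The probe A_52_P523459 moved in the same directions. Its levels were 4.63, 2.97, 1.70 and 3.62 in M+133+ DDC samples and -1.13, 1.08, -2.40 and -0.74 in M-133- DDC samples, against 1.69, 2.30, 0.34 and -0.53 in M+133+ untreated samples and -4.11 and -4.72 in M-133- untreated samples. Its sort differences were 4.03 (SE 0.83) after DDC and 5.37 (SE 1.02) in untreated liver. DDC differences were 2.28 (SE 0.83) in M+133+ cells, where the groups overlapped, and 3.62 (SE 1.02) in M-133- cells, where they did not.

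The probe A_51_P407053, whose sequence is given above, followed the other 2 in M+133+ cells and not in M-133- cells. It had levels of 4.74, 2.11, 0.78 and 3.37 in M+133+ DDC samples, against 1.40, 2.20, -2.11 and 0.71 in M+133+ untreated samples, a difference of 2.20 (SE 0.99) with overlapping groups. It had -3.25, -5.71, -3.82 and -4.16 in M-133- DDC samples, against -4.01 and -4.59 in M-133- untreated samples, a difference of 0.068 (SE 1.21), and its single spot was well above background on all of these arrays. On slides 1 and 2 the DDC difference in M-133- cells was 0.76 and 0.94 for this probe. Its sort difference was 6.99 (SE 0.99) after DDC and 4.85 (SE 1.21) in untreated liver.

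The same can be read within samples as the offset of A_51_P407053 from another Cd44 probe. Relative to A_52_P229536 the offset was -5.50 to -2.85 in M-133- DDC samples, against -0.93 and -0.83 in M-133- untreated samples. In M+133+ cells it was -1.80 to 0.16 after DDC and -1.45 to 1.02 in untreated liver. Relative to A_52_P523459 it was -6.79 to -1.41 in M-133- DDC samples, against 0.10 and 0.13 in M-133- untreated samples. In M+133+ cells this second offset was -0.93 to 0.11 after DDC and -2.45 to 1.24 in untreated liver, so the untreated M+133+ range overlapped that of M-133- DDC samples. Both offsets were lower in all 4 M-133- DDC samples than in both M-133- untreated samples. The repeat arrays of M-133- untreated sample 2 disagreed, however, with offsets of -2.63 and 0.78 relative to A_52_P229536 and of -1.14 and 1.41 relative to A_52_P523459. On the first of these arrays both offsets lay just above the M-133- DDC range. The DDC difference in M-133- cells was thus smaller for A_51_P407053 by 2.84 and 3.55 log2 units. In the authors' deposited table it is 0.81 on the log2 scale for A_51_P407053, against 3.24 for A_52_P229536 and 4.09 for the first spot of A_52_P523459. The other spots of A_52_P523459 have 3.27 to 4.38. Why the probes differed was not tested.

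**Figure D4:**
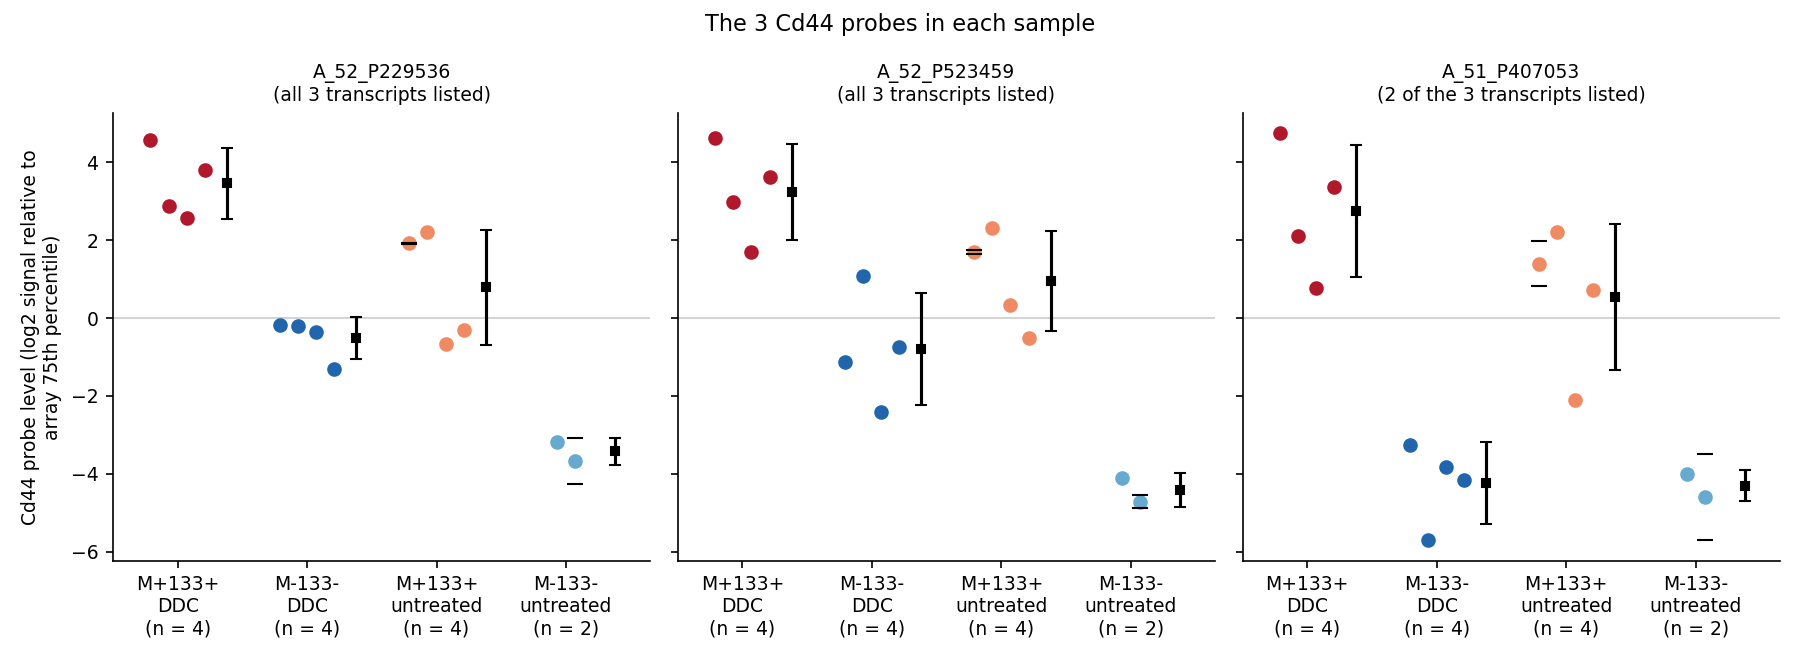
Levels of the 3 Cd44 probes (y axis, log2 signal relative to the array 75th percentile) by group, with 1 circle per sample, black ticks for repeat arrays, and squares with bars for the group mean and SD. In the right panel the M-133- DDC samples lie from -5.71 to -3.25, beside the M-133- untreated samples at -4.01 and -4.59.

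Here Cd44 is read by probe A_52_P229536 unless another is named. Taking both genes side by side, Spp1 and Cd44 differed between the sorts in the same direction. Within M-133- cells both were higher in DDC than in untreated samples, but with A_51_P407053 the Cd44 difference was 0.068 (SE 1.21). Within M+133+ cells Cd44 was higher in DDC than in untreated samples, though with A_52_P523459 and with A_51_P407053 the groups overlapped. The Spp1 difference in M+133+ cells was far smaller than its error. The DDC difference was -0.0016 (SE 0.66) for Spp1 and 2.67 (SE 0.70) for Cd44 in M+133+ cells, and 8.78 (SE 0.81) for Spp1 and 2.91 (SE 0.85) for Cd44 in M-133- cells. Both sets of comparisons share their samples, and the difference between the genes was not tested.

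The wider osteopontin and CD44 pathway was examined in 68 further genes of 7 lists, of which 63 could be tested. Limma called 21 of them in the sort comparison after DDC, 7 higher and 14 lower in M+133+ cells, and 21 in untreated liver, 6 higher and 15 lower. That is 33.3% in each, beside 12.3% of all genes after DDC (6.09% higher, 6.18% lower) and 8.46% in untreated liver (3.47% higher, 4.99% lower). DDC against untreated gave 1 call in M+133+ cells (lower, as were 0.0953% of all genes), 1 in M-133- cells and 0 in the interaction, where limma called 60 of all genes. There 9 pathway genes (14.3%) had an unadjusted p under 0.05, beside 10.1% of all genes tested. The 2 sort comparisons share no samples, but both use the spread of all 14. In untreated liver the calls leaned on the pair of M-133- samples. Of the 17 genes named below for untreated liver, 7 no longer passed once M-133- untreated sample 1 was left out (adjusted p = 0.051 to 0.29), namely F2, Mmp3, Cpb2, Lyve1, Ezr, Msn and Ets1. Without M-133- untreated sample 2, 7 of them no longer passed (adjusted p = 0.108 to 0.197), namely Itga9, F2, Mmp3, Cpb2, Lyve1, Msn and Ets1. None of the 17 changed direction under any alternative.

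**Figure D5:**
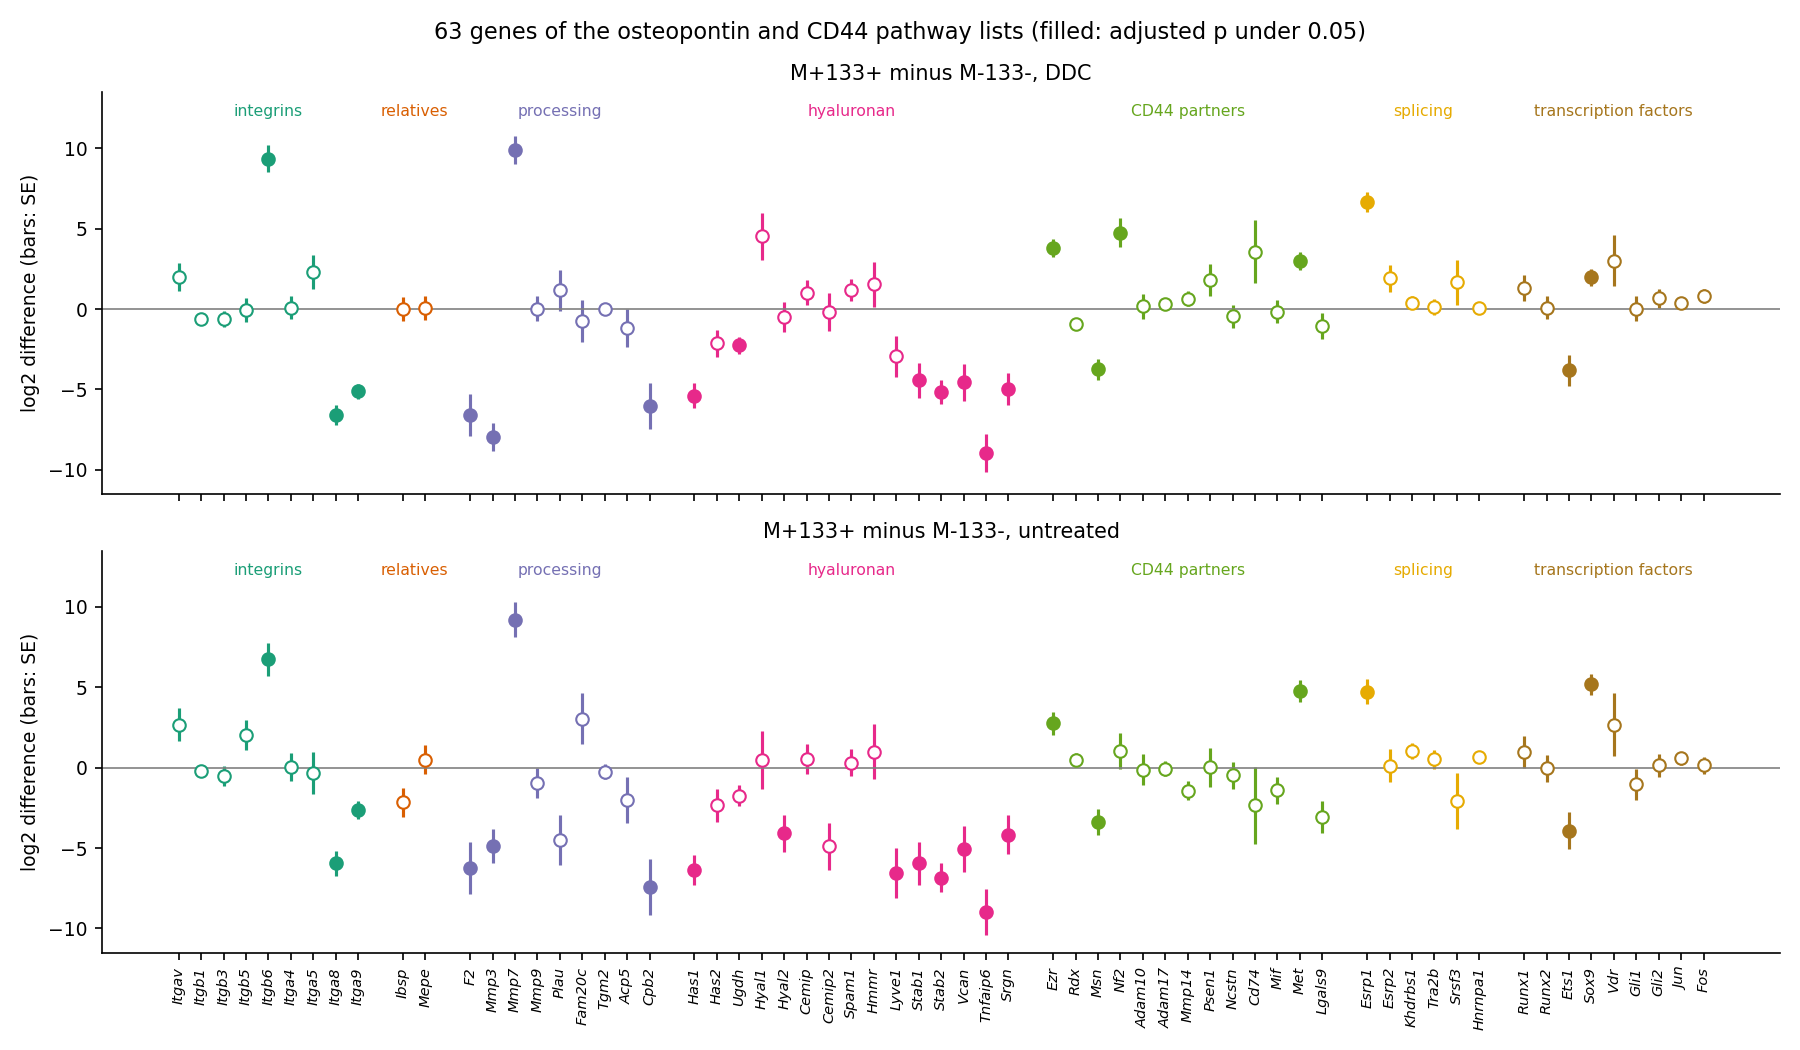
Log2 differences between M+133+ and M-133- cells (y axis, with SE) for 63 genes of the pathway lists, after DDC (top) and in untreated liver (bottom), filled where limma's adjusted p was under 0.05. The hyaluronan list holds 7 filled points after DDC and 8 in untreated liver, all below 0, while Itgb6, Mmp7 and Esrp1 stand high in both panels.

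Integrins are the main osteopontin receptors. Of 9 integrin genes, each sort comparison called 1 higher and 2 lower in M+133+ cells, and the list median was -0.05 after DDC and -0.24 in untreated liver. Itgb6, the beta subunit of the epithelial integrin αvβ6, had levels of 2.37, 1.33, 0.89 and 0.80 in M+133+ DDC samples, against -8.58, -8.93, -5.93 and -8.61 in M-133- DDC samples. The gene was well above background on 1 of the 4 M-133- DDC arrays, so the low end of the difference of 9.36 (SE 0.82, adjusted p = 5.85e-06) lies mostly in the background. The difference was 5.29 with quantile normalization and 5.94 with normexp background correction. The brightest probe was chosen anew in each setting. With the first repeat array alone, or without M+133+ untreated sample 1 or 2, the difference was 6.12. These settings left the DDC samples as they were, so the value came from another Itgb6 probe. The difference was 5.75 to 6.18 without any one of M+133+ DDC samples 1, 2 and 3 and M-133- DDC sample 3. It passed in each of these settings. In untreated liver Itgb6 was not well above background on any M-133- array and was at least 30.0-fold higher in M+133+ cells (adjusted p = 0.000779). With normexp background correction it did not pass there (2.45, adjusted p = 0.071). Itga8, whose product pairs with β1 and binds RGD ligands, was lower in M+133+ cells after DDC (difference -6.59, SE 0.63, adjusted p = 1.08e-05) and in untreated liver (difference -5.95, SE 0.77, adjusted p = 0.000279).

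Itga9, whose product binds a site that thrombin exposes in osteopontin, was lower in M+133+ cells after DDC (difference -5.10, SE 0.46, adjusted p = 7.82e-06) and in untreated liver (difference -2.63, SE 0.57, adjusted p = 0.00934). It was also the only pathway gene called for DDC in M+133+ cells. Its levels there were -3.29, -2.85, -2.83 and -2.19 in DDC samples, against 0.45, 1.12, 1.78 and 1.32 in untreated samples, a difference of -3.96 (SE 0.46, adjusted p = 0.00367). These groups lay far apart. The other integrin genes did not pass in any of these comparisons. Itgav, the alpha subunit shared by several osteopontin receptors, differed by 2.79 for DDC in M+133+ cells (adjusted p = 0.203) and by 3.46 in M-133- cells (adjusted p = 0.149). Itgb1 differed by -0.63 between the sorts after DDC (adjusted p = 0.16) and by -0.24 in untreated liver (adjusted p = 0.797).

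Of the 4 mineralised tissue relatives of osteopontin in its gene family, Ibsp and Mepe were tested and Dmp1 and Dspp were below the filter. Limma called 0 of these 2 in any comparison, although Ibsp had an unadjusted p under 0.05 in untreated liver (adjusted p = 0.178) and for DDC in M-133- cells (adjusted p = 0.307), as did Mepe for DDC in M+133+ cells (adjusted p = 0.33). Ibsp was not well above background on any array of M+133+ cells or of M-133- DDC cells.

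Among 9 enzymes that cleave or modify osteopontin, each sort comparison called 1 higher and 3 lower in M+133+ cells. Mmp7, matrilysin, which is made by epithelia, had levels of 2.60, 1.99, 1.78 and 0.97 in M+133+ DDC samples, and 2.02, 3.66, -0.60 and 0.08 in M+133+ untreated samples. It was not well above background on any M-133- array. It was at least 306-fold higher in M+133+ cells after DDC (adjusted p = 6.02e-06) and at least 153-fold higher in untreated liver (adjusted p = 0.000129). Mmp3, stromelysin 1, was well above background on 2 of 4 M+133+ DDC and 2 of 5 M+133+ untreated arrays. It was lower in M+133+ cells after DDC (difference -7.95, SE 0.88, adjusted p = 3.55e-05) and in untreated liver (difference -4.89, SE 1.07, adjusted p = 0.0103), but not with normexp background correction in untreated liver (-2.72, adjusted p = 0.0658). F2, the gene of prothrombin, and Cpb2, the gene of a plasma carboxypeptidase that trims thrombin-cleaved osteopontin, are both made by hepatocytes. F2 was lower in M+133+ cells after DDC (difference -6.59, adjusted p = 0.00341) and in untreated liver (difference -6.23, adjusted p = 0.0249). Cpb2 differed by -6.01 after DDC (adjusted p = 0.011) and by -7.42 in untreated liver (adjusted p = 0.0151). Hepatocyte markers moved with them, with a summed level of 6.11 to 6.87 in M+133+ DDC and 7.76 to 8.56 in M-133- DDC samples, and of 5.67 to 6.36 in M+133+ untreated and 7.90 to 9.55 in M-133- untreated samples. Their part was not tested. Tgm2, a transglutaminase that cross-links osteopontin, differed by 0.01 after DDC (adjusted p = 0.993) and by -0.25 in untreated liver (adjusted p = 0.851).

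The hyaluronan list, with synthases, hyaluronidases and other binding proteins, had 0 of 15 genes called higher in M+133+ cells by limma, while 1 after DDC and 0 in untreated liver were higher at an unadjusted p under 0.05. After DDC 7 were called lower and in untreated liver 8, with list medians of -2.26 and -4.18 beside 0.30 and -0.09 over all genes. Tnfaip6, whose product TSG-6 binds hyaluronan in inflamed matrix, was lower in M+133+ cells, with a difference of -8.94 after DDC (SE 1.16, adjusted p = 0.000137) and of -9.00 in untreated liver (SE 1.42, adjusted p = 0.00119). It was well above background on 1 of 4 M+133+ DDC and 1 of 5 M+133+ untreated arrays, so the size of both differences rests on signal mostly in the background, and both were smaller with normexp background correction (-5.91 and -5.65). In M+133+ cells it lay at -8.97 to -4.63 after DDC and at -9.35 to -4.28 in untreated liver, against 0.72 to 2.72 in M-133- DDC and 1.10 to 1.39 in M-133- untreated samples. Has1, a hyaluronan synthase, differed by -5.38 (SE 0.77, adjusted p = 3e-04) after DDC and by -6.34 (SE 0.94, adjusted p = 0.000734) in untreated liver. When the kept probes of each gene were averaged, Has1 did not pass in either (adjusted p = 0.0564 and 0.0506). Stab2, a scavenger receptor of sinusoidal endothelium that clears hyaluronan, differed by -5.14 (adjusted p = 0.000303) after DDC and by -6.85 (adjusted p = 0.000306) in untreated liver. Lyve1, another endothelial hyaluronan receptor of the list, differed by -6.57 in untreated liver (adjusted p = 0.0157), and Srgn, the proteoglycan serglycin, by -4.97 after DDC (adjusted p = 0.00354).

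Stab2 and Lyve1 also belong to the 8 endothelial markers, which moved the same way. Their summed level was 0.29 to 2.16 in M+133+ DDC and 3.69 to 6.37 in M-133- DDC samples, and 1.12 to 3.67 in M+133+ untreated and 8.07 to 8.91 in M-133- untreated samples. Stellate cell and fibroblast markers lay at 0.05 to 4.09 in M+133+ DDC and 6.85 to 8.18 in M-133- DDC samples, and at 0.63 to 2.09 in M+133+ untreated and 5.53 to 6.48 in M-133- untreated samples. The part of these cells in the hyaluronan genes was not tested.

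Of 13 partners, adaptors and sheddases of CD44, 3 were called higher and 1 lower in M+133+ cells after DDC, and 2 higher and 1 lower in untreated liver. The ezrin family, which ties CD44 to actin, was split. Ezr had levels of 5.20, 4.79, 4.92 and 4.69 in M+133+ DDC samples, against 2.47, 0.90, -0.88 and 1.95 in M-133- DDC samples, and the difference was 3.79 (SE 0.57, adjusted p = 0.000462). In untreated liver it was 2.75 (SE 0.70, adjusted p = 0.0236), which did not pass after subtracting the array median (2.57, adjusted p = 0.0914). Msn, the gene of moesin, was lower in M+133+ cells, with a difference of -3.74 after DDC (SE 0.67, adjusted p = 0.00166) and of -3.39 in untreated liver (SE 0.82, adjusted p = 0.0181). Met, the receptor of hepatocyte growth factor that variant CD44 can assist, differed by 2.97 after DDC (SE 0.55, adjusted p = 0.00207) and by 4.75 in untreated liver (SE 0.67, adjusted p = 0.000511). After DDC it was 5.52 with slide as a fixed term (adjusted p = 0.012). Nf2, the gene of merlin, was higher in M+133+ cells after DDC by 4.74 (SE 0.90, adjusted p = 0.00257). With slide as a fixed term, Nf2, Ezr and Srgn did not pass after DDC (adjusted p = 0.0599, 0.121 and 0.0553).

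Among 6 splicing factors that act on Cd44, Esrp1 was the only one called, and in both sort comparisons. ESRP1 is an epithelial splicing regulator that favours the variant exons of CD44. Its gene had levels of -0.68, -0.84, -1.11 and -0.23 in M+133+ DDC samples and -1.90, -2.06, -2.50 and -3.13 in M+133+ untreated samples. It was not well above background on any M-133- array. It was at least 51.3-fold higher in M+133+ cells after DDC (adjusted p = 8.93e-06) and at least 11.9-fold higher in untreated liver (adjusted p = 0.00135), where it did not pass with normexp background correction (adjusted p = 0.267). Esrp2, its paralog, differed by 1.93 after DDC (adjusted p = 0.163) and by 0.12 in untreated liver (adjusted p = 0.973).

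Of 9 transcription factors known to act on Spp1, each sort comparison called 1 higher and 1 lower in M+133+ cells. Sox9 had levels of 5.01, 4.19, 4.66 and 4.64 in M+133+ DDC samples and 2.43, 0.95, 4.17 and 3.01 in M-133- DDC samples. It had 4.37, 4.27, 4.34 and 4.98 in M+133+ untreated samples, against -1.11 and -0.27 in M-133- untreated samples. Its sort difference was 1.98 (SE 0.52, adjusted p = 0.0208) after DDC and 5.18 (SE 0.64, adjusted p = 0.000196) in untreated liver, and it was the only pathway gene called for DDC in M-133- cells. Besides the losses of that call given above, it did not pass with slide as a fixed term (3.26, adjusted p = 0.0612). The call after DDC was lost without M+133+ DDC sample 1 (1.85, adjusted p = 0.0551), without M-133- DDC sample 1 (1.91, adjusted p = 0.0512), after subtracting the array median (1.28, adjusted p = 0.205) and with slide as a fixed term (1.66, adjusted p = 0.314).

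Sox9 also belongs to the duct marker list. Ets1 was lower in M+133+ cells, with a difference of -3.82 (SE 0.94, adjusted p = 0.014) after DDC and of -3.93 (SE 1.15, adjusted p = 0.0471) in untreated liver. The first of these did not pass with slide as a fixed term (-3.99, adjusted p = 0.154), and the second did not pass under 17 of 27 alternatives. Runx2, the bone factor that drives Spp1 in osteoblasts, was not called in any comparison.

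The genes whose pattern over the 14 samples was nearest to each of the pair were found among 17114 named genes by the root mean square difference of levels centred on each gene's own mean. Nearest to Spp1 were Plet1 (0.97 log2 units), Enah (1.32), Lmo7 (1.36), Tspan8 (1.39), Ifi27l2b (1.47), Fam110c (1.56), Rab27b (1.57) and Map2 (1.63), against a median of 3.86 over all genes. Plet1, which encodes a surface protein of placental and other epithelia, averaged 4.99 in M+133+ DDC and 3.42 in M-133- DDC samples, and 5.44 in M+133+ untreated and -4.41 in M-133- untreated samples. Nearest to Cd44 were F3 (0.85), Plp2 (0.86), Hspb1 (0.86), Cd14 (0.88), Ppl (0.90), Crip1 (1.01), Myo5b (1.02) and Krt13 (1.02), against a median of 2.64. F3, the gene of tissue factor, averaged 4.55 in M+133+ DDC and -0.41 in M-133- DDC samples, and 2.63 in M+133+ untreated and -3.03 in M-133- untreated samples. The 8 genes nearest to Spp1 and the 8 nearest to Cd44 shared no member. Spp1 and Cd44 themselves were 2.53 log2 units apart, which ranked Cd44 as the 96th nearest gene to Spp1 and Spp1 as the 6715th nearest to Cd44. The measure follows the size of changes as well as their shape, and the SD over the 14 samples was 3.66 for Spp1 and 2.39 for Cd44. All these values come from the same 14 samples, and the likeness is a description.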

How the data were processed

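Expression was measured on 16 Agilent single-colour arrays of 14 biological samples. Per the labels' protocols, RNA of sorted cells was amplified as cDNA and labelled with Cy3. The deposited array files give the processed signal of each spot as an intensity, background-subtracted by Feature Extraction 10.5.1.1 per the file headers and not normalized between arrays. The authors also deposited a score per spot and comparison, a signed linear fold change of group means, whose sign and log2 were turned here to the direction used in the text. How these were normalized is not given in the sources used here, beyond limma being listed among the tools of the submitters' processing notes.

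From these files, log2 of the processed signal minus the 75th percentile of the array was computed. Spots of a probe, then repeat arrays, were averaged. A probe was kept where the scanner's flag put it above background in a share of 0.5 or more of the samples in 1 group or more, and the brightest kept probe stood for a gene. Of 41174 probes, 32831 were matched to a gene name in a RefSeq table of another build, used for names only. limma 3.58.1 in R 4.3.3 was fitted with an intensity trend on 14 samples in 4 groups, two-sided, with Benjamini-Hochberg adjustment over 24127 genes, calls at an adjusted p under 0.05, and SE as the moderated standard error. The SE takes 1 spread per gene for all 4 groups. The fit was tested on simulated data. Where a gene was below background on every array of a group, the fold against the dimmest signal well above background is given as "at least". Named from the pathway lists were, per list and comparison, up to 4 called genes of largest difference, plus members given with values that did not pass, and the 8 genes nearest in pattern to each of the pair. A gene of the lists is not reported here and was left out of every list count and summed level. The members, lists and this rule were chosen with earlier results of these data known. Genes given as not passing, the marker genes, and the 2 genes described in full by likeness were picked after their values were seen. Whether the replicate numbers pair samples was checked. Deviations of same-numbered samples correlated at -0.06 to 0.07, and of samples with the same title prefix at -0.01 to 0.11, so neither was taken as pairing samples. Alternatives covered normalization, background correction, the filter, probe choice, repeat arrays, slide, replicate blocks and leaving out each sample. The number of arrays limits the precision.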

Additional observations from a re-analysis of the deposited data

Results flagged for a closer look

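In 78 groups of 4 samples examined for the 2 genes' probes and the named genes, 8 had a sample far from the other 3 by Dixon's test, where chance alone gives about 1 in 20. Cd44 probe A_52_P229536 was at -1.31 in M-133- DDC sample 4, against -0.35 to -0.18 in the other M-133- DDC samples. In M-133- DDC cells Itgb6 was at -5.93 in sample 3 (others -8.93 to -8.58), Tnfaip6 at 2.72 in sample 2 (others 0.72 to 0.98) and Des at 0.79 in sample 1 (others 1.60 to 1.63). Stab2 was at -1.08 in M+133+ DDC sample 3 (others -2.86 to -2.60). In M+133+ untreated cells Itga8 was at -0.47 in sample 2 (others -2.90 to -2.72), Cpb2 at -0.18 in sample 3 (others -4.80 to -4.51) and Sox9 at 4.98 in sample 4 (others 4.27 to 4.37).

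The DDC effect differed between the sorts for 2 marker genes by limma's interaction term. It was -6.63 for Tspan8 (SE 1.10, adjusted p = 0.0251) and -6.61 for Des (SE 1.26, adjusted p = 0.0451), on a scale where a negative value means a smaller DDC difference in M+133+ than in M-133- cells. The calls did not pass under 9 and 21 of 27 alternatives, with adjusted p of 0.00454 to 0.392 and of 0.0324 to 0.381.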

How the results depend on the processing

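Across 20 results and 562 settings, 480 settings left a difference of Spp1 or Cd44 within the pooled SD within groups (1.08 and 1.00) or a count within 1.5 times. With normexp, Spp1 was 8.04 and Cd44 3.04 between the sorts in untreated liver, 6.43 and 1.77 between treatments in M-133- cells, and -6.44 and 0.86 in the interaction, the Cd44 interaction thus turning its sign. With the first repeat array alone Spp1 was 9.35 between the sorts in untreated liver, 7.70 between treatments in M-133- cells and -7.68 in the interaction, and with the second 11.56, 9.86 and -9.89. With slide as a random block the same values were 9.33, 7.69 and -7.66, and with a fixed block the interaction was -7.43. Within slide 2 the sort difference in untreated liver was 6.21, and DDC in M-133- cells gave 11.85 within slide 1 and 3.79 within slide 2. Cd44 between the sorts after DDC was 5.00 with its kept probes averaged, 5.21 with slide as a fixed block and 6.99 with probe A_51_P407053. With that probe DDC in M-133- cells gave 0.068 and the interaction 2.13, a turned sign. With A_52_P523459 the sort difference in untreated liver was 5.37 and the interaction -1.34. Normexp also gave 6.35 and 4.59 for Mmp7, -5.91 and -5.65 for Tnfaip6 between the sorts after DDC and in untreated liver, and 3.74 for Esrp1 after DDC, all with adjusted p under 0.05. The cause of these shifts was not tested.

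Counts of called genes moved as follows. For DDC in M+133+ cells, 56 became 105 with quantile normalization, 27 with array medians, 85 with normexp, 90 when all samples of a group had to be well above background, 88 with probes averaged, 22 with no intensity trend and 23 with slide as a fixed block. With slide as a fixed block the count was 1120 between the sorts after DDC (2961), 147 between treatments in M-133- cells (229) and 11 in the interaction (60). The interaction count was 38 with normexp and 37 with no trend. The pathway count for DDC in M-133- cells (1) was 2 when all samples of a group had to be well above background and with the second repeat array, and 0 with no trend or slide as a fixed block, and that for the interaction (0) was 1 with probes averaged. A replicate block by replicate number gave 6 genes between treatments in M+133+ cells, 118 in M-133- cells with 0 pathway genes, and 22 in the interaction. A replicate block by the prefix of the sample titles gave 775 genes and 12 pathway genes between the sorts in untreated liver, where Itga9, F2, Mmp3, Cpb2, Lyve1, Ezr, Msn and Ets1 then did not pass (adjusted p = 0.0692 to 0.143), 1 gene for the interaction, and could not be fitted for DDC.

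Leaving out 1 sample at a time gave 826 to 2229 genes and 10 to 22 pathway genes between the sorts in untreated liver, with Spp1 at 8.71 to 12.20 and Cd44 at 3.74 to 4.69. After DDC the sort comparison gave 2391 to 2917 genes, 21 to 22 pathway genes, 1.28 to 2.11 for Spp1 and 3.60 to 4.26 for Cd44. DDC in M+133+ cells gave 6 to 114 genes, 1 pathway gene, -0.16 to 0.16 for Spp1 and 2.19 to 3.14 for Cd44. DDC in M-133- cells gave 77 to 270 genes, 0 to 2 pathway genes, 7.03 to 10.53 for Spp1 and 2.67 to 3.18 for Cd44. The interaction gave 18 to 103 genes, 0 to 1 pathway genes, -10.53 to -7.03 for Spp1 and -0.73 to 0.23 for Cd44. With 2 M-133- untreated samples, 1 is assumed to vary like the other groups when the other is left out. Signal near background limits the low Spp1 and Cd44 levels in M-133- untreated cells.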
